A study of Homo sapiens with 2 samples.

Results

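Protein arginine methyltransferases (PRMTs) were followed in HT-29, an established line of human colorectal adenocarcinoma, after knockdown of MYC. The set consists of 7 PRMT genes, PRMT1, PRMT2, PRMT3, CARM1 (also called PRMT4), PRMT5, PRMT6 and PRMT7, and of WDR77 (MEP50), the obligate partner of PRMT5. Every probe set that names exactly 1 of these genes in the platform annotation was taken, which gave 18 of the 54675 probe sets of the array, and all 8 genes were represented. There were 2 arrays, 1 per condition, both of HT-29 cells transfected with siRNA at 20 nM for 24 h and used after 48 h. The control array came from cells given a non-targeting siRNA pool according to the protocol, although the label for treatment on that sample reads None, and the other array from cells that received pooled siRNAs directed at MYC. HT-29 is a single established line, and no replicate culture was measured, so the differences cannot be set against replicate error and p-values are not given. The arrays hold RNA of whole cultures, in which fewer cells of a kind and less RNA per cell cannot be told apart.

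PRMTs transfer methyl groups from S-adenosylmethionine to arginine side chains of histones, RNA-binding proteins and splicing factors. Type I enzymes (PRMT1, PRMT2, PRMT3, CARM1 and PRMT6) place both methyl groups on the same nitrogen, which gives asymmetric dimethylarginine. The type II enzyme PRMT5, in complex with WDR77, gives symmetric dimethylarginine, among others on the Sm proteins that form the core of spliceosomal snRNPs, and PRMT7 adds only a single methyl group. MYC is a transcription factor that binds the DNA letters CACGTG, called an E-box, as a dimer with MAX, and PRMT5 is known as a MYC target in lymphoma.

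The start regions of the genes are shown because they hold, or lack, this motif. RefSeq promoters of build GRCh38.p14, 250 bases before to 50 bases after each annotated start, were found for all 8 genes (10 windows). They were searched on both strands for CACGTG and for the variant CACGCG, which reads CGCGTG on the other strand. PRMT3 and WDR77 held CACGTG, CARM1 and PRMT7 held the variant, and PRMT1, PRMT2, PRMT5 and PRMT6 held neither in these windows. No match overlapped another. In the 30 bases around each match, written 5′ to 3′ on the strand of the gene, capitals mark the motif.
PRMT3: ccgcccccacctCACGTGacccgcacggcg
WDR77: tcagaggtgcacCACGTGgggtttgctgcc
CARM1: gcggcgaggcggCGCGTGgccggcaggcgg
PRMT7: gaggtcccgcccCGCGTGctggccgcggta
The PRMT3 stretch lies at chr11:20387517-20387546 on the plus strand, with the motif starting 187 bases before the start site, and that of WDR77 at chr1:111449229-111449258 on the minus strand, with the motif starting at base 11 of the transcript. Those of CARM1 and PRMT7 lie at chr19:10871507-10871536 and chr16:68311027-68311056, both on the plus strand. The motif of CARM1 starts 34 bases before the start site in 1 of the 2 windows of the gene. In PRMT7 it starts 75 bases before one annotated start and at base 21 from another. Of all 35116 promoters in the table, 7.26% held CACGTG and 11.4% the variant. Among the 7482 genes with a promoter and a signal above 50, 13.6% held CACGTG, and their median log2 ratio of MYC siRNA over control was -0.03, against 0.04 in those without. The variant was held by 23.5% of these genes, with medians of -0.03 and 0.05 with and without it. A match describes these letters only and does not show binding of MYC.

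For contrast, the 250 bases before the start of PRMT5 (chr14:22929377-22929626, minus strand), the gene with the lowest ratio of the set, held neither motif.
PRMT5: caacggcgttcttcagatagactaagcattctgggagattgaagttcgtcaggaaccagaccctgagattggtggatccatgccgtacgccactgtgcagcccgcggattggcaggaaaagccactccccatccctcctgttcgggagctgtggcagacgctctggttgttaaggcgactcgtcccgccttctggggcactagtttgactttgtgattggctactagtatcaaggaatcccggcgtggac

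Values are MAS5 signals, a summary over the probes of a probe set, with every array scaled to an average of 100. The single probe set of MYC itself read 1963 in the control siRNA array and 1640 in the MYC siRNA array, a 1.20-fold lower signal. This log2 ratio of -0.26 is short of 2-fold. The original work showed the knockdown by immunoblot of MYC protein, which the arrays do not measure. It also reported decreased growth of the cells and lower expression of curated MYC target genes after MYC siRNA. Of 11 markers of colorectal epithelium, 9 were above 50 in both arrays, while the transcription factors CDX1 and CDX2 were under 4 in both. Of 7 markers of blood, stromal, endothelial or liver cells with a probe set, only COL1A1 was above 50 (94.7 and 78.9 with control and MYC siRNA). The floor and the 2-fold threshold follow the methods of the original work, which call probe sets and use the mean ratio of a gene for networks. Signals under 50 were raised to 50 before the MYC siRNA signal was divided by the control signal, and a ratio of at least 2 or at most 0.5 counted as changed. Here, by contrast, each gene was represented by its brightest probe set. Probe sets of a gene differed among themselves with an SD of 0.27 on the log2 scale in dim genes, 0.23 in genes of middle signal and 0.18 in bright genes (4040 genes with several probe sets). This SD does not include variation between cultures.

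Of the 8 genes, 6 were lower with MYC siRNA (PRMT5, PRMT3, WDR77, CARM1, PRMT1 and PRMT7) and 2 were higher (PRMT2 and PRMT6). PRMT5 was lower by at least 2-fold (with the mean over probe sets the count was 0 of 8), and PRMT5, PRMT3, WDR77, CARM1 and PRMT1 were lower by at least 1.5-fold. Over all 8917 genes above 50 in at least 1 array, 0.695% were lower by at least 2-fold, 5.72% by at least 1.5-fold and 46.5% by any amount. The median log2 ratio was -0.60 over the 8 genes and 0.03 over all genes above 50. All 8 genes were above 50 in both arrays, so no fold of these genes is a bound. Of the 18 probe sets, 9 were lower, 4 higher and 5 at or under 50 in both arrays, whereas 49.2% of all 17127 probe sets above 50 were lower.

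**Figure D1:**
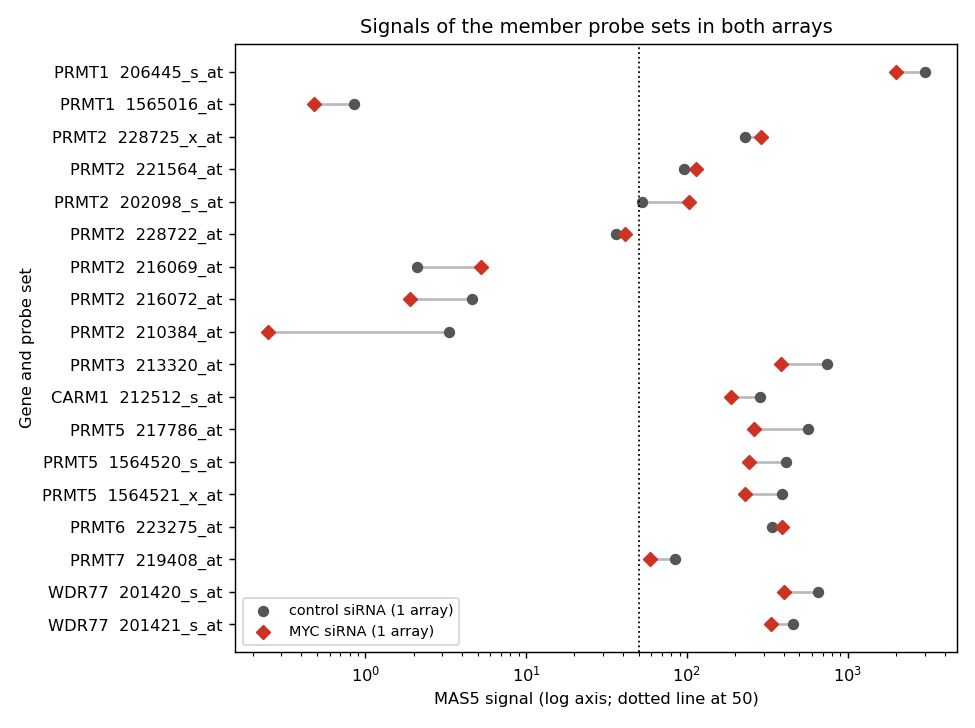
MAS5 signal (x axis, log scale) of each of the 18 probe sets (y axis, gene and probe set) in the control siRNA array (grey circles) and the MYC siRNA array (red diamonds), 1 array each. The dotted line marks 50; all 3 probe sets of PRMT5 and both of WDR77 lie further left with MYC siRNA, and 5 probe sets of PRMT1 and PRMT2 lie left of the line in both arrays.

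PRMT5, the main enzyme of symmetric arginine dimethylation, had 3 probe sets above 50. The brightest (217786_at) read 569 in the control array and 263 after MYC siRNA, a log2 ratio of -1.11 (2.16-fold lower). A second (1564520_s_at) went from 410 to 242, which is 1.70-fold lower. The third (1564521_x_at), which was designed on the same sequence record as the second, went from 392 to 230, which is 1.71-fold lower. PRMT5 was thus lower in each probe set, but past 2-fold only in the brightest, and the mean log2 ratio of the 3 was -0.88. Among 1174 other genes of like signal (a mean signal within 0.32 of that of PRMT5 on the log2 scale), 4 had a ratio at least as low (0.341%), and their median log2 ratio was 0.01.

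WDR77, the WD-repeat protein that binds substrates for PRMT5, was lower in both of its probe sets. The brighter (201420_s_at) read 648 in the control array and 401 after MYC siRNA, a log2 ratio of -0.69 (1.62-fold lower). In the other (201421_s_at) the signal went from 457 to 332, which is 1.38-fold lower. The log2 ratio was -0.46 in this probe set, and that of the brighter one was 3.75 times the SD between probe sets. Of 1038 other genes of like signal, 34 had a ratio at least as low as the brighter probe set (3.28%).

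PRMT3, a type I enzyme of the cytosol with a zinc finger that binds the ribosomal protein RPS2, was second lowest. Its only probe set (213320_at) read 738 in the control array and 383 after MYC siRNA, a log2 ratio of -0.95 (1.93-fold lower), just short of 2-fold. Of 1000 other genes of like signal, 9 lay at or below PRMT3 (0.90%). Its log2 ratio was 5.13 times the SD of bright genes between their probe sets. That of PRMT5 was 6.02 times this SD, with PRMT5 classed as bright by its brightest probe set alone. By the mean signal of its probe sets PRMT5 would fall in the middle class, whose SD of 0.23 gives a smaller multiple. PRMT3 and WDR77, whose windows hold CACGTG, were lower, as was PRMT5, whose window does not.

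PRMT1, the enzyme responsible for most asymmetric dimethylarginine in cells, was measured by a single probe set above 50 (206445_s_at). Its signal was 3004 with control siRNA and 1987 with MYC siRNA, a log2 ratio of -0.60 (1.51-fold lower). Bright genes were slightly lower in general, with a median log2 ratio of -0.09 over the 240 other genes of like signal. Of these, 13 had a ratio at least as low as PRMT1 (5.42%). PRMT1 was no longer past 1.5-fold after quantile normalization (-0.50) or loess on mean signal (-0.47), and PRMT7 was past it under both (-0.63 and -0.60). A second probe set of PRMT1 (1565016_at) had a signal under 1 in both arrays.

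CARM1, which methylates histone H3 and the coactivators of nuclear receptors, was represented by 1 probe set (212512_s_at). Its signal was 286 with control siRNA and 187 with MYC siRNA, a log2 ratio of -0.61 (1.52-fold lower), and 80 of 1305 other genes of like signal had a ratio at least as low (6.13%). PRMT7, the monomethylating enzyme, was the dimmest of the set. In its only probe set (219408_at) the signal was 83.8 with control siRNA and 59.1 with MYC siRNA, a log2 ratio of -0.50 (1.42-fold lower). The value with MYC siRNA is close to the floor, and with signals under 100 set to 100 PRMT7 has a log2 ratio of 0. Of 990 other genes as dim as PRMT7, 64 had a ratio at least as low (6.46%), and their median log2 ratio was 0.20.

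PRMT2 and PRMT6 were on the other side. PRMT2, a type I enzyme with an SH3 domain and weak activity of its own, was higher in all 3 of its probe sets above 50. The brightest (228725_x_at) read 230 in the control array and 289 after MYC siRNA, a log2 ratio of 0.33 (1.26-fold higher). In 221564_at the signal went from 95.6 to 113, which is 1.19-fold higher. In 202098_s_at it went from 52.3, close to the floor, to 103, which is 1.98-fold higher. The probe sets of PRMT2 thus had the same direction with log2 ratios from 0.25 to 0.98, and the mean was 0.52. The other 4 probe sets of PRMT2 did not exceed 50 in either array and have no fold.

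PRMT6, a nuclear type I enzyme that methylates histone H3, was measured by a single probe set (223275_at). Its signal was 338 with control siRNA and 388 with MYC siRNA, a log2 ratio of 0.20 (1.15-fold higher). This is within the SD of 0.23 between probe sets of a gene of middle signal. Of 1227 other genes of like signal, 390 had a ratio at least as high as PRMT6 (31.8%), and for PRMT2 these were 286 of 1282 (22.3%).

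**Figure D2:**
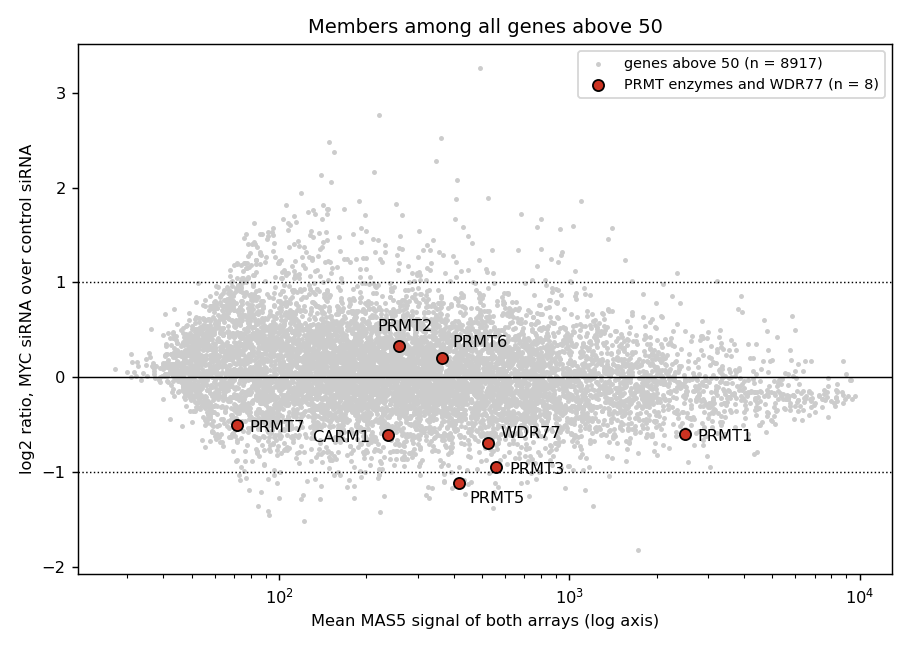
Log2 ratio of MYC siRNA over control (y axis) against the mean signal of both arrays (x axis, log scale) for the 8917 genes above 50 (grey) and the 8 named genes (red), each by its brightest probe set. Solid and dotted lines mark no difference and 2-fold; PRMT5 lies below the lower dotted line at -1.11, PRMT3 just above it at -0.95, and PRMT2 and PRMT6 above the solid line.

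In order of the log2 ratio from the lowest, the genes were PRMT5, PRMT3, WDR77, CARM1, PRMT1, PRMT7, PRMT6 and PRMT2. Neighbours in this order differed by at most 0.26 except PRMT7 and PRMT6. The step from PRMT7 at -0.50 to PRMT6 at 0.20 separated the lower from the higher genes. At a floor of 100, where PRMT7 had a log2 ratio of 0, the largest step lay between PRMT1 and PRMT7. WDR77, CARM1, PRMT1 and PRMT7 lay between -0.69 and -0.50, and the order among them was not told apart here. Over the 2 arrays, likeness in pattern is only likeness of this ratio. The genes closest to PRMT5 among 964 of like control signal were RPP40, WDR3 and TSR1, with log2 ratios of -1.10, -1.10 and -1.13 that differed from that of PRMT5 by 0.01 each.

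The directions of the 8 genes were kept under another floor, scaling or choice of probe set, apart from PRMT7 at a floor of 100. The log2 ratio of PRMT3 ranged from -0.96 to -0.92 over 10 alternatives, that of PRMT6 from 0.19 to 0.21 and that of PRMT2 from 0.25 to 0.52. CARM1, PRMT1 and WDR77 have only probe sets above 50 that can bind several transcripts, and they drop out when these are set aside. PRMT5 was 2.16-fold lower without such probe sets as well, because 217786_at is not among them.

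**Figure D3:**
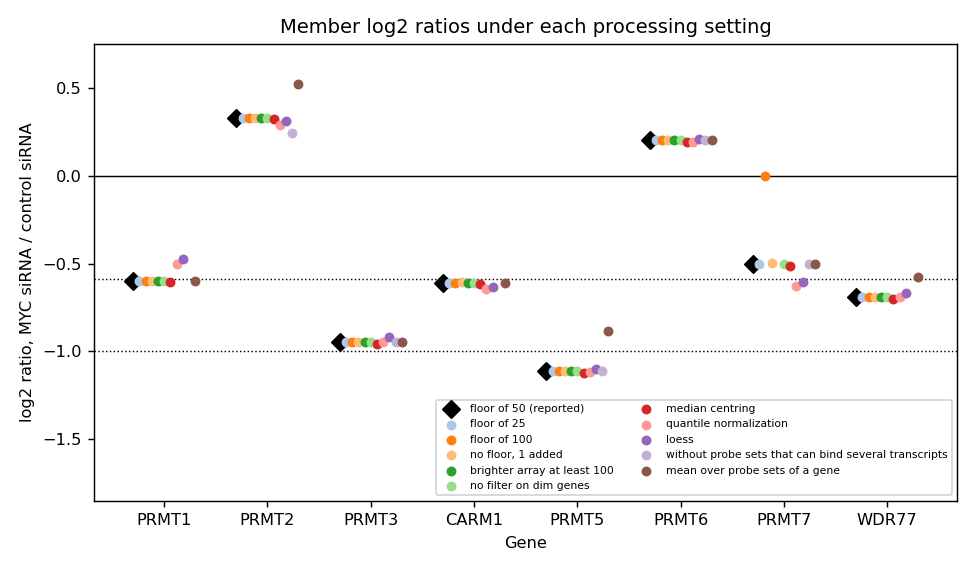
Log2 ratio of MYC siRNA over control (y axis) of each gene (x axis) as reported (black diamonds) and under 10 alternative settings (coloured points; a gene without a probe set in a setting has no point). Solid and dotted lines mark no difference, 1.5-fold and 2-fold lower; the points of PRMT5 lie near -1.11 except the mean over its probe sets at -0.88.

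Other enzymes of arginine methylation were dim or differed by less than 1.5-fold. PRMT9, which methylates the splicing factor SF3B2, had signals of 74.1 and 75.1 with control and MYC siRNA. NDUFAF7, a mitochondrial enzyme that methylates a subunit of complex I, went from 206 to 159 (1.29-fold lower, 1.21-fold and 1.24-fold in other probe sets). PRMT8, known from brain, was at or under 50 in both arrays. Neither PRMT9 nor NDUFAF7 was lower by 1.5-fold.

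Partners of PRMT5 and PRMT1 were lower in 4 of 4 measured genes (46.5% over all genes above 50), with a median log2 ratio of -0.39. CLNS1A (pICln), which brings Sm proteins to PRMT5, went from 1571 to 1037, which is 1.51-fold lower. RIOK1, an alternative adaptor that recruits nucleolin, went from 226 to 154, 1.47-fold lower. COPRS, which directs PRMT5 to histones, went from 1215 to 1048, 1.16-fold lower. BTG1, a cofactor of PRMT1, was 1.17-fold lower in its brightest probe set and 1.03-fold higher in another, so its direction is uncertain.

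The Sm proteins and the SMN complex receive the product of PRMT5 and WDR77. Of 16 genes, 15 were lower and 1 higher with MYC siRNA, with a median log2 ratio of -0.33. Over all genes above 50, 46.5% were lower. Many of the 16 genes are bright, and genes with a mean signal from 751 upward had a median log2 ratio of -0.10. GEMIN5, which recognizes snRNAs, went from 494 to 244 (2.02-fold lower), and GEMIN4 from 292 to 156 (1.88-fold lower, 1.39-fold in another probe set). Of the Sm proteins, SNRPF went from 2816 to 1836 (1.53-fold lower) and SNRPD1 from 2306 to 1670 (1.38-fold lower, 1.18-fold in another probe set). The other Sm genes changed less, with log2 ratios from -0.38 (SNRPD2) to -0.21 (SNRPD3). LSM4 had a log2 ratio of -0.05 and of 0.01 in another probe set, so its direction is uncertain. The higher gene, GEMIN8, had signals of 49.4 and 51.8, at the floor. Genes such as GEMIN8 that are named only to complete a count were chosen after their values were seen.

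RNA-binding and ribosomal proteins known to carry methylarginine were lower in 15 of 19 genes, with a median log2 ratio of -0.24. The share lower over all genes above 50 was 46.5%. The nucleolar proteins FBL, GAR1 and NCL, which are methylated in their glycine- and arginine-rich stretches, were 1.78-fold, 1.58-fold and 1.57-fold lower, FBL from 3816 to 2146. SYNCRIP, an hnRNP, was 1.45-fold lower, and its probe sets above 50 were all lower, by 1.15-fold to 1.75-fold. The 4 higher genes were CIRBP, PABPN1, CHTOP and TAF15, with log2 ratios of 0.52, 0.12, 0.09 and 0.07. CIRBP, a cold-inducible RNA-binding protein, went from 365 to 523. CIRBP and TAF15 each have another probe set that was lower (-0.12 and -0.66), so their direction is uncertain. The median of the list came to -0.07 after quantile normalization or loess.

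Genes that supply or recycle S-adenosylmethionine, the methyl donor, were lower in 7 of 10, with a median log2 ratio of -0.37. Among all genes above 50, 46.5% were lower. MTR, the methionine synthase, went from 410 to 258 (1.59-fold lower, 1.23-fold in another probe set), and MTRR, which reactivates it, was 1.43-fold and 1.74-fold lower in its probe sets. SLC25A26, the mitochondrial carrier of S-adenosylmethionine, was 1.43-fold lower, from 142 to 98.7. AHCY, which clears the inhibitory product of methylation, went from 2261 to 1647 (1.37-fold lower). AHCYL2, MTAP and MAT2B had log2 ratios of 0.29, 0.14 and 0.02, and the probe sets of MTAP ranged from -0.40 to 0.19. AHCYL1, counted as lower, had a log2 ratio of -0.13 and of 0.10 in another probe set, so its direction is uncertain. The median of this list was -0.29 after quantile normalization and -0.28 after loess. When probe sets that may bind more than a single transcript were set aside, this list had a median of -0.18, and that of the partners of PRMT5 and PRMT1 was -0.21.

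Coactivators that work with or are methylated by CARM1 were lower in 3 and higher in 3 of 6 genes, with a median log2 ratio of -0.04. This count is near the share of 46.5% lower over all genes above 50. SMARCC1 was 1.31-fold lower and CREBBP 1.15-fold lower, while NCOA2 was 1.15-fold higher and EP300 1.03-fold higher with another probe set 1.02-fold lower. NCOA1 was 1.69-fold higher, but its control signal of 51.6 lies near the floor. Among Tudor-domain readers of methylarginine, 2 of 4 measured genes were lower, again near the share over all genes. SMNDC1, a splicing factor, was 1.23-fold lower, SND1 1.12-fold lower and TDRKH 1.12-fold higher.

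Enzymes that act on arginine against methylation, or break down free methylarginine, had the widest spread, with 4 of 5 measured genes higher and 3 of them by at least 2-fold, compared with 2.73% of all genes above 50. The median log2 ratio was 1.35. PADI1, a deiminase that turns arginine into citrulline, went from 96.6 to 287 (2.97-fold higher, 2.46-fold in another probe set). PADI2, of the same family, went from 18.8 to 279 and was at least 5.57-fold higher, and at least 2.16-fold in another probe set. Its control signals were under 50, so PADI2 entered these counts only through the MYC siRNA array, where it is high. DDAH2, of the family that hydrolyses free methylarginine, went from 149 to 381 (2.55-fold higher), and its other probe sets were 2.29-fold and 2.39-fold higher, but all of them may bind more than a single transcript. DDAH1 had signals of 1795 and 1852 and a log2 ratio of -0.24 in another probe set, so its direction is uncertain. JMJD6, a hydroxylase that has also been described as an arginine demethylase, went the other way, from 471 to 283 (1.66-fold lower, 1.35-fold in another probe set). PADI3 and PADI4 were at or under 50 in both arrays.

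Lysine methyltransferases, which use the same methyl donor, served for comparison. Of 24 genes above 50, 18 were lower (46.5% over all genes above 50) and 6 higher, with a median log2 ratio of -0.10. Among the lower genes, EHMT1 and EZH1 were near 0 (-0.01 and -0.02). KMT2A, NSD3, SETD2 and DOT1L had another probe set that was higher (up to 0.15, 0.34, 0.23 and 0.06), so their direction is uncertain. So is that of KMT2C and KMT2D, counted as higher, with a probe set that was lower (-0.03 and -0.20). SMYD4, also higher, had signals of 42.3 and 52.3 and entered only through the MYC siRNA array. The count lower by at least 1.5-fold was 0 of 24 against 5 of 8 for the PRMT enzymes and WDR77. Over all genes above 50 this share was 5.72%, so a count of 0 of 24 is near that of genes in general. The lowest with a signal of at least 100 were SETD7, from 990 to 675 (1.47-fold lower), KMT5A (1.37-fold lower in its brightest probe set and 1.16-fold to 1.51-fold in the others), SMYD3 (1.26-fold) and EZH2 (1.24-fold). With 1 array per condition the difference between the families could not be tested.

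**Figure D4:**
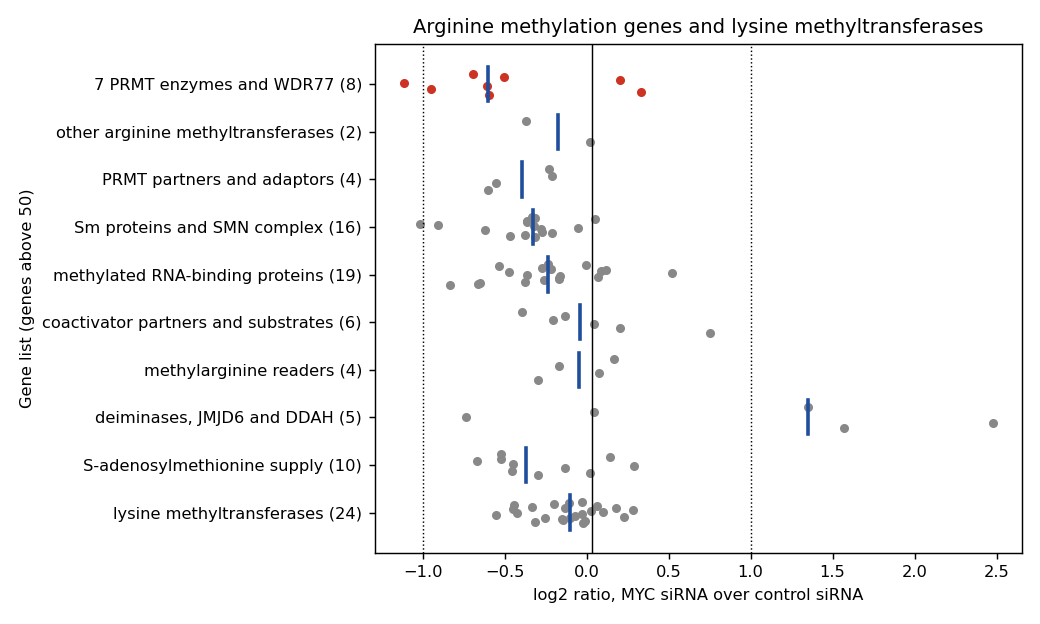
Ratios of MYC siRNA to control siRNA on the log2 scale (x axis) for genes above 50 in 10 lists (y axis, with gene numbers in brackets); points are genes, blue bars list medians, the solid line is the median of all genes at 0.03 and dotted lines mark 2-fold. The PRMT enzymes and WDR77 (red, median -0.60) spread from -1.11 to 0.33, and the lysine methyltransferases lie between -0.55 and 0.28.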

How the data were processed

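The deposited intensity values were linear MAS5 signals from Affymetrix U133 Plus 2.0 arrays, which the authors computed in R with affy 1.40.0 and scaled per array to an average of 100. When the outer 2% of probe sets at either end were left out, the average was 100 in each array. Signals exceeded 50 in 16074 (control siRNA) and 16571 (MYC siRNA) probe sets. Precision is limited by the number of arrays.

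Symbols came from the platform annotation, updated through gene identifiers to RefSeq of GRCh38.p14; 41097 probe sets name 1 gene, 1801 several and 11777 are not listed. No probe set names 1 of the 8 genes together with another. Array coordinates were not used. Signals under 50 were set to 50, log2 ratios were taken, and each gene was represented by its brightest probe set. Genes of like signal lay within 0.32 on the log2 scale of the signal. Of 112 genes in 9 further lists, 10 had no probe set of their own. In these lists, up to 4 genes with the largest log2 ratio and a signal of at least 100 were named, and all genes of the 2 shortest enzyme and partner lists. The genes and lists were chosen with earlier results of these data known. The 10 alternatives were floors of 25 and 100, 1 added without a floor, a brighter array of at least 100, no filter on dim genes, median centring, loess (span 0.3), quantile normalization, the mean over probe sets, and setting aside those that may bind several transcripts. The calculations were tested on simulated arrays. Python 3.11.15, numpy 2.4.6, pandas 2.3.3, statsmodels 0.14.6 and matplotlib 3.10.9 were used.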

Additional observations from a re-analysis of the deposited data

How the results depend on the processing

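The number of genes lower by at least 2-fold was 0 with the mean over probe sets of a gene, where PRMT5 had a log2 ratio of -0.88 (its less bright probe sets were 1.70-fold and 1.71-fold lower). Without probe sets that can bind several transcripts, 2 genes (PRMT5 and PRMT3) were lower by at least 1.5-fold and 3 probe sets were lower instead of 9. The 6 left out are those of CARM1, PRMT1 and WDR77, which have no other probe set above 50, and the less bright pair of PRMT5. In that setting the median log2 ratio of deiminases, JMJD6 and DDAH was 0.81 instead of 1.35, since every probe set of DDAH2 is left out, and it was 0.046 when genes at or under 50 in both arrays entered with a ratio of 0. The median of the 8 genes ranged from -0.63 to -0.50 over the 10 alternatives, that of the RNA-binding proteins from -0.34 to -0.07 and that of the Sm proteins and SMN complex from -0.34 to -0.28. For PRMT9 and NDUFAF7 the median was -0.18, and it was 0.02 where the probe sets of NDUFAF7 were left out. For single genes, PRMT7 had a log2 ratio of 0 with a floor of 100. WDR77 was just short of 1.5-fold with the mean over its probe sets (-0.58). No paired analysis was possible because each condition had 1 array, and for the same reason no array could be left out. Signal limits the 5 probe sets of PRMT1 and PRMT2 at or under 50, which have no fold, and PRMT7, whose signal with MYC siRNA lies near 50.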
